A study of Mus musculus with 12 samples.

Results

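The UBE2 family holds the ubiquitin-conjugating enzymes (E2s), and its transcripts were followed here in mouse embryonic fibroblasts (MEFs) with and without knockdown of BRUCE, itself a giant E2. Members were the gene symbols that begin with Ube2 and go on with a single class letter and, where there is one, a paralogue number or suffix. The rule used no measured value. It found 34 of the 24062 genes in the count table, of which 31 passed the filter on low counts and were tested among 12154 genes. Ube2d2b and Ube2u had 0 counts in every library and Ube2ql1 had at most 3 counts in a library, so these 3 were not tested. A count of 0 in a library allows up to 3 counts, which is a CPM of 0.389 or less in these libraries, for counting error only.

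Ubiquitin is activated by an E1, passed to the active-site cysteine of an E2 and then transferred to a substrate with the help of an E3 ligase. The E2 often decides whether a single ubiquitin or a chain is built and which linkage the chain has. A few members carry other modifiers: UBE2M and UBE2F conjugate NEDD8, which activates cullin-RING ligases, and UBE2L6 conjugates ISG15.

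The study sequenced RNA of 2 MEF lines. The control line, shRenilla, carries an shRNA to Renilla luciferase, and the knockdown line, shBruce#1, carries one to Birc6, which encodes BRUCE. Each line was kept in fully supplemented medium (FM) or placed for 2 h in a medium lacking serum and amino acids (Starv), with 3 replicates in each of the 4 conditions. Both lines thus carry an shRNA and differ in its target, and a single line stood for each shRNA, so other differences between the lines and the knockdown cannot be told apart. Nothing in the labels says whether replicates were separate cultures, so p-values measure the spread between these libraries. The values are read counts per gene, and a normalized count is a count scaled so that all 12 libraries have the same effective size.

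Total counts ranged from 7717265 to 18510540 per library, and the lowest belonged to replicate 1 of shBruce Starv. In that library 5 members lay more than 0.5 from their condition's median on the log2 scale, against at most 1 member in any other library. Where leaving it out ended a call of a gene named below, this is said beside the result. The same holds for a value past the threshold that moved by over 1.5 times. Values short of the threshold also moved, and this is given for some of them only. The fibroblast genes Col1a1, Col1a2, Vim and S100a4 were high in every library, Col3a1 and Pdgfrb were lower, and Thy1 had 0 to 3 counts. Epcam, Cdh1, Pecam1 and Pou5f1, markers of other cells, had at most 6 counts and Ptprc, a leukocyte marker, 1 to 17. Birc6 had 4682, 3273 and 5061 normalized counts in shRenilla FM, 4759, 4712 and 2787 in shRenilla Starv, 1207, 1265 and 1390.4 in shBruce FM and 1175, 703 and 1226 in shBruce Starv. Every shBruce library was below every shRenilla library. The log2 fold change of Birc6 was -1.75 ± 0.25 (SE, n = 3 per condition) in FM, with an adjusted p of 0.0627 from edgeR's quasi-likelihood test, which did not pass the threshold of 0.05, and -1.98 ± 0.25 in Starv, with an adjusted p of 0.0186, a call kept in 10 of the 12 fits without a library.

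Levels of different genes can be compared only per transcript length, so counts were divided by the kilobases of each gene's longest annotated transcript and by effective library size (written below as counts per kb). On this scale the 31 members spanned 38.5-fold in shRenilla FM. Ube2m, which conjugates NEDD8, stood first with 103 ± 9.46 counts per kb (SD, n = 3) and did not overlap the next member. Ube2z (78.3 ± 3.06), an E2 for ubiquitin and FAT10, Ube2b (77.2 ± 6.33), Ube2c (76.1 ± 5.63) and Ube2l3 (74.0 ± 3.05) followed, and each of these overlapped the next. The first 5 members held 39.2% of the family's summed level per length. At the low end were Ube2v2 (4.27 ± 0.719), Ube2v1 (2.92 ± 0.313) and Ube2j2 (2.67 ± 0.213), the first 2 of which encode catalytically inactive E2 variants. Of the 30 pairs of neighbours in the order, 19 had overlapping replicates, so the order between them was not resolved. A member whose shorter transcripts are the ones expressed is understated on this scale.

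**Figure D1:**
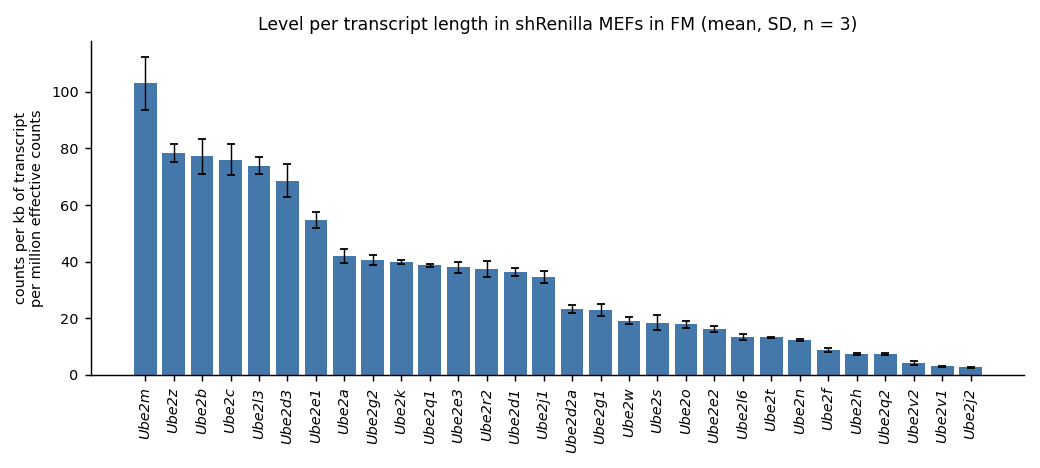
Level of tested UBE2 members in shRenilla MEFs in FM, as counts per kb of transcript scaled to library size. Bars are means and error bars SD over 3 replicates. Ube2m stands above the rest at 103, and the level falls to 2.67 for Ube2j2.

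Part of these counts cannot be assigned to a member with certainty. Of the 50-base windows of the Ube2v1 transcript, 83.2% also occur in transcripts of other genes, mainly the read-through gene Gm20431. This share was 20.9% for Ube2q2, 16.3% for Ube2d2a, 12.9% for Ube2j2, 12.1% for Ube2e1 and 10.7% for Ube2n. It was 5.12% for Ube2f and 5.90% for Ube2g2, and 0% for Ube2t, Ube2o, Ube2q1, Ube2s, Ube2d1 and Ube2r2. Exons of genes on the opposite strand cover 55.4% of the Ube2l3 transcript (Ydjc), 51.0% of Ube2e1 (Nkiras1) and 27.0% of Ube2c (Tnnc2). The strand setting of the counting is not given in the sources used here, so reads of such pairs may be counted together or left out. Exons of other genes, among them Gm20431 on the same strand, cover 92.2% of the Ube2v1 transcript. Reads of Ube2v1 may be left out too, so its place at the low end is uncertain.

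Starvation for 2 h lowered a few members in each line and raised Ube2t in both. In shRenilla MEFs 1 of the 31 members rose, against 9.69% of all genes tested, and 3 fell, against 7.27%. The members that fell were Ube2f, Ube2g2 and Ube2n. In shBruce MEFs 1 member rose, against 12.4% of all genes, and 6 fell, against 10.6%. These 6 were Ube2f, Ube2g2, Ube2s, Ube2o, Ube2q1 and Ube2d1. In bulk RNA, fewer cells with a transcript and less of it per cell cannot be told apart. In this fit the share that rose stood below the background in both lines. The share that fell stood near it in shRenilla and above it in shBruce, but the latter varied between fits. In shBruce 3 members fell without replicate 1 of shBruce Starv, against 1416 of 12254 genes. Under upper-quartile normalization 3 fell, against 933 of 12154. Without replicate 2 of shBruce Starv 8 fell, against 1344 of 12284.

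In shRenilla MEFs most members were lower after starvation whether or not they passed. The median log2 fold change of the members was -0.19, against -0.01 over all genes tested, and 27 of the 31 members were below 0. For 16 members every shRenilla Starv library was below every shRenilla FM library, a pattern shown by 26.5% of all genes. When only the 6 shRenilla libraries were fitted, 11 members fell, against 19.5% of all genes in that fit, and 1 rose, against 22.4%. In shBruce MEFs the median was -0.05, against 0.02 over all genes, and it was 0.04 under upper-quartile normalization, which moved the median of all genes by 0.09. In shBruce, 9 members had Starv libraries that were all lower, against 14.8% of all genes. With only the 6 shBruce libraries fitted, 0 members passed in edgeR, against 4.68% of all genes higher and 3.43% lower, and 6 members had an unadjusted p under the threshold. For the unadjusted p, the share of all genes in that fit is not given here. For shBruce, DESeq2 on all 12 libraries called 1 member higher, against 12% of the 13451 genes to which it gave an adjusted p, and 8 lower, against 12.2%. In limma-voom 1 was higher, against 11.7% of all genes, and 6 lower, against 10.9%.

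The starvation comparisons of the lines share no library. In both of them, Ube2d1, Ube2f, Ube2g2, Ube2j1, Ube2o, Ube2q1, Ube2s and Ube2z had Starv libraries all below the FM libraries, 8 members against 11.4% of all genes. Ube2t was the only member with all Starv libraries higher in both lines, and the share of all genes with that pattern is not given here. In both lines 17 members were below 0 and 4 above, against 4401 and 4576 of the 12154 genes tested. Over the 31 members the log2 fold changes of the lines had a Pearson correlation of 0.69, against 0.78 over all genes tested, as a description across genes. Over all genes tested the split of calls was 1178 higher and 883 lower in shRenilla and 1506 and 1284 in shBruce, and under upper-quartile normalization it was 1588 and 641, and 1991 and 933.

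**Figure D2:**
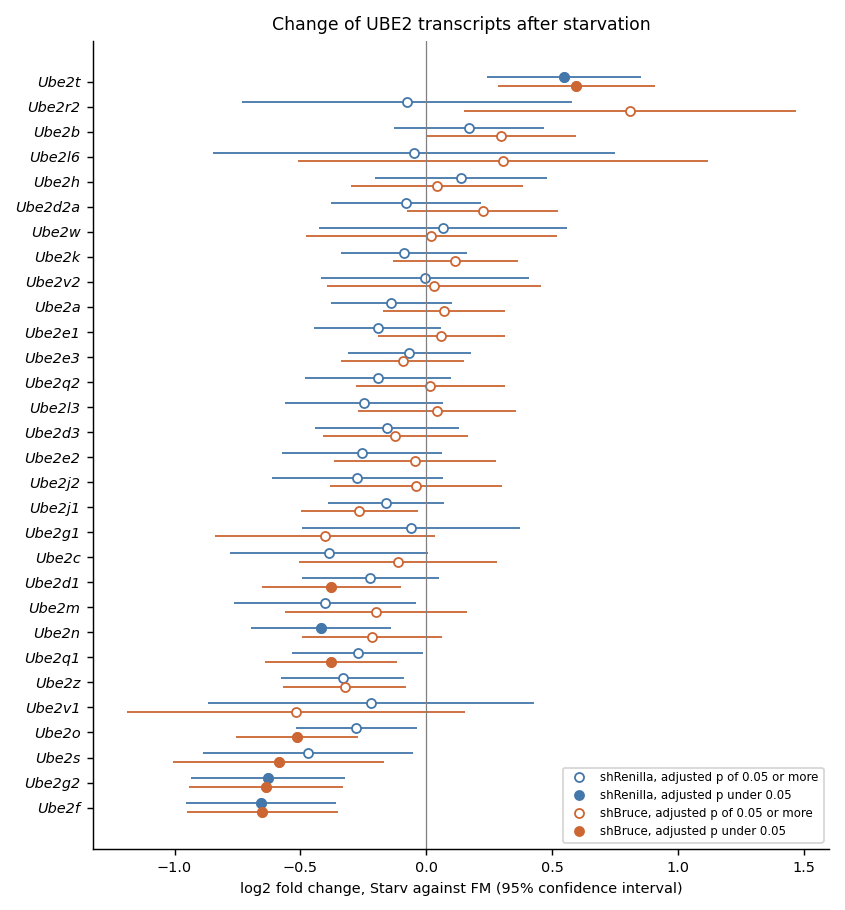
Log2 fold change of tested members after starvation, in shRenilla (blue) and shBruce MEFs (orange), with 95% confidence intervals from edgeR. Filled points have an adjusted p under 0.05. Ube2t lies to the right of 0 in both lines, at 0.55 and 0.59, and Ube2f and Ube2g2 lie to the left in both, between -0.66 and -0.63.

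Among the E2s of ubiquitin-like modifiers, Ube2f fell in both lines. UBE2F works with the ligase subunit RBX2 to attach NEDD8 to the cullin CUL5. The gene lies at chr1:91250304-91290337 (GRCm38) on the plus strand, and its longest transcript has 10 exons. Ube2f had 721, 778 and 670.3 normalized counts in shRenilla FM and 436, 455 and 486 in shRenilla Starv, then 839, 799 and 761 in shBruce FM and 563, 562 and 406 in shBruce Starv. All 6 starved libraries were below all 6 libraries in FM. The log2 fold change was -0.66 ± 0.14 in shRenilla (adjusted p = 0.00549) and -0.65 ± 0.14 in shBruce (adjusted p = 0.00476). An exact permutation test of 3 libraries against 3 cannot go below a two-sided p of 0.1, which Ube2f reached in both lines.

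The other NEDD8 enzyme, UBE2M, pairs with RBX1 and the other cullins. Ube2m had 2069.9, 2446 and 2125 normalized counts in shRenilla FM and 1486, 1524 and 2012 in shRenilla Starv. The starved libraries were all lower, but the log2 fold change of -0.40 ± 0.17 had an adjusted p of 0.118, and in shBruce it was -0.20 ± 0.17 (adjusted p = 0.411). The change in shBruce was -0.37 without replicate 1 of shBruce Starv and did not pass. Of the 8 cullin and RBX genes tested, 0 passed after starvation in either line in edgeR, with 1 in each line at an unadjusted p under the threshold and medians of -0.05 and -0.24.

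Ube2z, charged by the E1 UBA6, had 4609.9, 4728 and 4377 normalized counts in shRenilla FM and 3672, 3521 and 3696 in Starv, and 4913, 4887 and 4716 in shBruce FM and 3555, 4492 and 3538 in Starv. Its starved libraries were lower within each line. The changes of -0.33 and -0.33 on the log2 scale had adjusted p of 0.0614 and 0.0556 and so did not pass. The E1 list had 0 of 9 genes past the threshold after starvation in either line, with 1 in each line at an unadjusted p under it. Of the 11 modifier genes, 0 passed in shRenilla in edgeR (3 at an unadjusted p under the threshold), and in shBruce 1 was higher and 0 were lower.

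Ube2g2, which builds K48-linked chains in endoplasmic-reticulum-associated degradation (ERAD), also fell in both lines. It lies at chr10:77622275-77645993 on the plus strand and has 6 exons. Its normalized counts were 1150.0, 1261 and 1202 in shRenilla FM, 734, 744 and 859 in shRenilla Starv, 1324, 1375 and 1409 in shBruce FM and 803, 1092 and 742 in shBruce Starv. Again all 6 starved libraries were below all 6 in FM, although replicate 2 of shBruce Starv was close to replicate 1 of shRenilla FM. Ube2g2 changed by -0.63 ± 0.14 in shRenilla (adjusted p = 0.00830) and -0.64 ± 0.14 in shBruce (adjusted p = 0.00614), both on the log2 scale.

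The other ERAD enzymes did not pass. Ube2j1, an E2 anchored in the endoplasmic reticulum membrane, had log2 fold changes of -0.16 and -0.27 in shRenilla and shBruce, with adjusted p of 0.334 and 0.0922, and its relative Ube2j2 had -0.27 and -0.04. Among 6 ERAD ligases and partners tested, 0 passed in shRenilla in edgeR, also at an unadjusted p, and in shBruce 1 was lower and 0 were higher. Of the other builders of K48-linked chains, Ube2g1, Ube2k and Ube2r2 ranged from -0.09 to -0.06 in shRenilla and from -0.40 to 0.81 in shBruce, and did not pass. Leaving out replicate 1 of shBruce Starv put Ube2g1 at -0.19, Ube2k at 0.04 and Ube2r2 at 0.20 in shBruce.

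Ube2c and Ube2s serve the anaphase-promoting complex (APC/C): UBE2C starts chains on its substrates and UBE2S extends them. Ube2s had 316, 386 and 300.2 normalized counts in shRenilla FM and 219, 217 and 287 in Starv. In shBruce the values were 423, 469 and 404 in FM and 266, 376 and 219 in Starv. The starved libraries were lower within each line, but replicate 2 of shBruce Starv exceeded shRenilla FM replicates 1 and 3. Its change of -0.59 ± 0.19 in shBruce passed (adjusted p = 0.0443), and -0.47 ± 0.19 in shRenilla did not (adjusted p = 0.115), on the log2 scale.

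Ube2c, at 2338, 2641 and 2322 normalized counts in shRenilla FM and 1716, 1690.1 and 2173 in Starv, had a log2 fold change of -0.39 (adjusted p = 0.164). In shBruce its libraries overlapped between the media and the change was -0.11. Leaving out replicate 1 of shBruce Starv moved this change to -0.36, which did not pass. Of 16 APC/C subunits and coactivators, 1 fell in each line, the coactivator Fzr1, by 0.37 in shRenilla and 0.38 in shBruce on the log2 scale, with medians of -0.09 and -0.19 over the list. Fzr1 had an adjusted p of 0.0499 in shRenilla and 0.0348 in shBruce, where the call was kept in 6 of 12 fits without 1 library. Of 20 G2 and mitosis genes, Nusap1 rose in both lines, by 0.41 and 0.48, and 4 fell in shBruce, among them Plk1 (-0.67), Bub1b (-0.46) and Cdk1 (-0.44). Without replicate 1 of shBruce Starv, Bub1b was at -0.38 and did not pass. Whether the share of dividing cells has a part in the values of Ube2c and Ube2s was not tested.

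Ube2t was the member that rose. UBE2T places a single ubiquitin on FANCD2 in the Fanconi anaemia pathway of DNA crosslink repair. The gene lies at chr1:134962565-134974162 on the plus strand and has 7 exons. It had 212, 216 and 217 normalized counts in shRenilla FM and 279, 305 and 359 in Starv, and 201, 199.95 and 207 in shBruce FM and 252, 318 and 343 in Starv. The FM libraries of both lines lay within a narrow range, and all 6 starved libraries were above them. The log2 fold change was 0.55 ± 0.14 in shRenilla (adjusted p = 0.0188), which is 1.46-fold, and 0.59 ± 0.14 in shBruce (adjusted p = 0.0102), which is 1.51-fold. In shRenilla the call was lost on leaving out any of 5 of the 6 shRenilla libraries, all but replicate 1 of Starv, with changes from 0.44 to 0.62 over 12 fits, each without 1 of the libraries. In shBruce it was kept in all 12.

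Ube2n encodes UBC13, which builds K63-linked chains with the inactive partners UBE2V1 and UBE2V2. Ube2n, at chr10:95515145-95545657, had 704, 696 and 665 normalized counts in shRenilla FM and 490.0, 524 and 532 in Starv. The starved libraries were all lower, and the log2 fold change was -0.42 ± 0.13 (adjusted p = 0.0404). Of 12 fits without 1 of the libraries, the call was kept in the 6 without a shBruce library. It was lost on leaving out any of the 6 shRenilla libraries. In shBruce Ube2n had 751, 575 and 676 in FM and 569, 643 and 512 in Starv. These overlapped, with a change of -0.22 (adjusted p = 0.248). Ube2v1 had changes of -0.22 and -0.52 and Ube2v2 of -0.004 and 0.03, and neither passed. In shBruce, Ube2v1 was at -0.21 and Ube2v2 at 0.17 without replicate 1 of shBruce Starv. Among 7 ligases that work with UBE2N, 0 passed in shRenilla in edgeR (3 at an unadjusted p under the threshold), while Rnf168 (1.15, and 0.77 without replicate 1 of shBruce Starv) and Traf2 (0.49) rose in shBruce.

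Ube2o, Ube2q1 and Ube2d1, like Ube2s, passed in shBruce and not in shRenilla, and the difference between the lines did not pass for any member. UBE2O is a large enzyme that joins E2 and E3 activity. Ube2o, at chr11:116537740-116581447 on the minus strand, had 1250.4, 1429 and 1376 normalized counts in shRenilla FM and 1151, 1102 and 1092 in Starv, and 1442, 1630.0 and 1528 in shBruce FM and 1039.5, 979 and 1199 in Starv. Its starved libraries were below every FM library. The log2 fold change was -0.51 ± 0.11 in shBruce (adjusted p = 0.00568) and -0.28 ± 0.11 in shRenilla (adjusted p = 0.108).

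Ube2q1, of the Q class of E2s, had 1752, 1754 and 1711 normalized counts in shRenilla FM and 1385, 1429.6 and 1501 in Starv, and 1728, 1794 and 1482 in shBruce FM and 1100.1, 1455 and 1287 in Starv. The media did not overlap within either line. Its log2 fold change was -0.38 ± 0.12 in shBruce (adjusted p = 0.0392) and -0.27 in shRenilla (adjusted p = 0.140). Ube2d1, whose product works with many RING and HECT ligases, had 792, 749.7 and 735 in shRenilla FM and 606, 644 and 702 in Starv, and 813, 651 and 829 in shBruce FM and 545, 648 and 571 in Starv. The closest libraries were replicate 2 of shBruce in each medium. The change of -0.38 ± 0.13 in shBruce had an adjusted p of 0.0487. When fits were repeated without each of the 12 libraries, the call in shBruce was kept 12 times for Ube2o, 3 for Ube2q1, 2 for Ube2d1 and 2 for Ube2s. Without replicate 1 of shBruce Starv, Ube2q1 was at -0.30, Ube2d1 at -0.34 and Ube2s at -0.56, and these did not pass.

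The remaining members did not pass in either line. Ube2a and Ube2b encode the RAD6 enzymes, which ubiquitinate histone H2B and PCNA. Their log2 fold changes were -0.14 and 0.17 in shRenilla and 0.07 and 0.30 in shBruce. Of 5 RAD6 ligases, 0 passed in either line in edgeR, with 1 in each at an unadjusted p under the threshold. Ube2l3 encodes UBCH7, the partner of ligases that take ubiquitin onto their own cysteine, and it had -0.25 and 0.04. Its change in shBruce was -0.15 without replicate 1 of shBruce Starv. The other ubiquitin E2s of broad use, Ube2d2a, Ube2d3, Ube2e1, Ube2e2, Ube2e3 and Ube2w, lay between -0.26 and 0.07 in shRenilla and between -0.12 and 0.22 in shBruce. Ube2h, the E2 of the CTLH ligase, had 0.14 and 0.04, while Rmnd5a, a RING subunit of that ligase, rose by 0.93 in shRenilla (adjusted p = 0.0461). In shBruce Rmnd5a was at 0.53 (adjusted p = 0.213), and at 0.82 without replicate 1 of shBruce Starv (adjusted p = 0.0200). Over the fits without 1 library its change in shBruce ran from 0.005 to 0.82. Leaving out replicate 1 of shBruce Starv put Ube2h at 0.20 in shBruce.

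**Figure D3:**
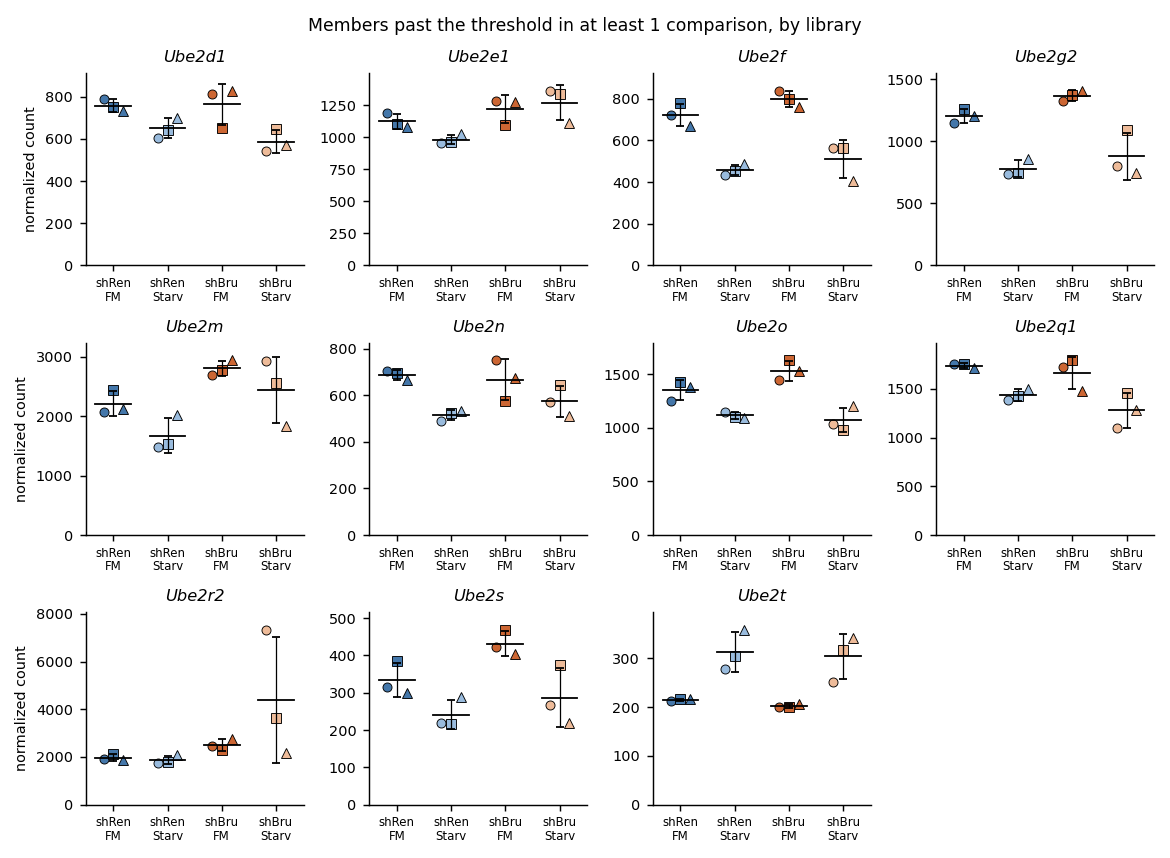
Normalized counts of 11 members that passed in at least 1 comparison, by library. Circles, squares and triangles are replicates 1, 2 and 3, lines are means and error bars SD (n = 3). Ube2f and Ube2g2 are lower and Ube2t is higher in all starved libraries of both lines, and Ube2r2 is spread from 2167 to 7331 in shBruce Starv.

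The promoters of Ube2f and Ube2t, called in both lines, and of Ube2d1 are shown to set the letters before genes that rose and fell side by side. They are the 250 bases before the start, from RefSeq on GRCm38.p6, written 5′ to 3′ on the gene's strand, with matches to 8 motifs on both strands in capitals. The motifs were the CCAAT box (CCAAT), the GC box (GGGCGG), the E-box (CACGTG), the CHR (TTTGAA), the ETS core (CCGGAA), E2F (TTTGGCGC), FOXO (TGTTTAC) and the CRE (TGACGTCA). A match is a description of the letters and not a binding site. No promoter entry was found for Ube2g2.
Ube2d1, chr10:71285263-71285512, minus strand: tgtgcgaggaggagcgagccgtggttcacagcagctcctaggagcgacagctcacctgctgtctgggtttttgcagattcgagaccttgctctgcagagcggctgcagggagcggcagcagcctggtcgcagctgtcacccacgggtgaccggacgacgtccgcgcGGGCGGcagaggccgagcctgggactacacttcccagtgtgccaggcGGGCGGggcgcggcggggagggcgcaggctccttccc
Ube2f, chr1:91250054-91250303, plus strand: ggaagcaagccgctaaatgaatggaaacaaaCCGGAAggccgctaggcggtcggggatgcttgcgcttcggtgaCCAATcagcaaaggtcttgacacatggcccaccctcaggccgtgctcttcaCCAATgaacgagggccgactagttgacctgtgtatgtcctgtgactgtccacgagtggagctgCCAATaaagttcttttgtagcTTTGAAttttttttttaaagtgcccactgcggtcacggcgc
Ube2t, chr1:134962315-134962564, plus strand: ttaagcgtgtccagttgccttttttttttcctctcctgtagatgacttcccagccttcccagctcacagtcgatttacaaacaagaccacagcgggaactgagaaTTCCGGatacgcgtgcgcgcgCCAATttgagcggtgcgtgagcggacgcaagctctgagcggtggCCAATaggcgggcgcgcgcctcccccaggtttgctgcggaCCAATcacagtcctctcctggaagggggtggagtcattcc
Ube2f, which fell, and Ube2t, which rose, each held 3 CCAAT boxes and 1 ETS core, and Ube2f also held 1 CHR. Ube2f has another promoter window, at chr1:91250316-91250615, which is not shown. That window of 300 bases held the GC box and the ETS core and none of the other motifs. Ube2d1, which fell in shBruce, held 2 GC boxes and none of the other motifs.

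Promoter windows of 300 bases, from 250 before to 50 after the start, were matched for 27 of the 34 members. The GC box was in the windows of 23 of the 27 (85.2%), against 35.7% of all 32851 promoters. The CCAAT box was in 8 (29.6%, against 37.4%), the ETS core in 9 (33.3%, against 14.9%), the CHR in 4 (14.8%, against 17.9%), and the E-box (7.41%, against 7.15%) and the CRE (7.41%, against 1.79%) in 2 each. The FOXO motif was in the window of Ube2h alone (3.70%, against 3.65%) and E2F in 0, against 0.514% of all promoters. The median GC content was 69.3% over the 38 UBE2 windows and 52.7% over all promoters. A member with several windows counts once if any window holds the motif, which favours the members over single promoters.

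Between the lines in FM, no member passed the threshold. In edgeR 0 of the 31 members passed, against 0% of all genes tested, and 0 had an unadjusted p under the threshold, against 1750 of 12154 genes. DESeq2 and limma-voom also called 0 members. Over all genes DESeq2 called 35 higher and 59 lower, and limma-voom called 0. The log2 fold changes of shBruce against shRenilla ran from -0.33 for Ube2l6 to 0.37 for Ube2s, with a median of 0.02. For Ube2s the 95% confidence interval was -0.04 to 0.78, for Ube2m, at 0.34, -0.02 to 0.70, and for Ube2r2, at 0.35, -0.31 to 1.01. The difference of Ube2m in Starv, given below, lies inside its interval in FM.

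After starvation 4 members were higher in shBruce than in shRenilla MEFs, against 12.8% of all genes, and 0 were lower, against 11.2%. Among them were Ube2r2, Ube2m and Ube2e1. For 6 members every shBruce Starv library was above every shRenilla Starv library, against 16.4% of all genes. For 2 members, Ube2g1 and Ube2j1, every shBruce Starv library was below, and the share of all genes is not given here. The median over the members was 0.11, against 0.00 over all genes tested. These calls were lost without single libraries, as were most calls over all genes. Without replicate 1 of shBruce Starv 0 members passed, against 1.84% of all genes higher and 2.83% lower. Without replicate 2 it was 0 members, against 5 genes higher and 10 lower of 12284. Leaving out replicate 1 or replicate 2 of shRenilla Starv left 0 members and 0 of all genes past the threshold in edgeR, with 4 members at an unadjusted p under it in each fit. The share of all genes with an unadjusted p under it is not given here for these fits. Without replicate 3 of shBruce Starv, 9 members were higher, against 22.2% of all genes, and 1 was lower, against 24.5%. With the trends of each library over length and GC content of the transcripts removed, 2 members passed, Ube2r2 and Ube2k, both higher, against 2.72% of all genes higher and 2.01% lower. Over all genes the calls then went from 1550 higher and 1357 lower to 330 and 244.

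Ube2r2 encodes a CDC34-type E2 that builds K48-linked chains for cullin-RING ligases. The gene lies at chr4:41135743-41193380 on the plus strand and has 5 exons. It had 1751, 1774 and 2058 normalized counts in shRenilla Starv and 7331, 3648 and 2167 in shBruce Starv. Replicate 1 was far above the other two, and replicate 3 was only just above the shRenilla libraries. In FM it had 1902, 2137 and 1849.5 in shRenilla and 2473, 2268 and 2755 in shBruce. The log2 fold change in Starv was 1.23 ± 0.31 (adjusted p = 0.0241) and was 0.63 without replicate 1 of shBruce Starv (adjusted p = 0.0566). Its paralogue Cdc34 had 955, 968 and 1309 normalized counts in shRenilla Starv and 3597, 1827 and 1098 in shBruce Starv. As for Ube2r2, replicate 1 of shBruce Starv was the highest library, while replicate 3 overlapped shRenilla, and the difference was 1.01 ± 0.31 (adjusted p = 0.0378). Without replicate 1 it was 0.43 (adjusted p = 0.167).

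Ube2m had 2700.3, 2774 and 2942 normalized counts in shBruce FM and 2929, 2566 and 1838 in shBruce Starv, and the last of these overlapped shRenilla Starv. Its difference of 0.54 ± 0.17 in Starv (adjusted p = 0.0363) turned to -0.11 with the length and GC trends removed. Ube2e1, a promiscuous E2 with an N-terminal extension, had 955, 965 and 1026 in shRenilla Starv and 1363, 1335 and 1113 in shBruce Starv, and its difference of 0.37 ± 0.12 (adjusted p = 0.0393) was 0.18 with the trends removed. Without replicate 1 of shBruce Starv, Ube2m was at 0.38 and Ube2e1 at 0.30 (adjusted p = 0.119 and 0.0943). The part of length, GC content and single libraries in these differences was not tested further. When fits were repeated without each of the 12 libraries, the call was kept 8 times for Ube2r2, 4 for Ube2m and 3 for Ube2e1.

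Other components of the cascade differed between the starved lines, where 12.8% of all genes were higher and 11.2% lower in shBruce. The calls of these lists, like those of the members, were all lost without replicate 1 or replicate 2 of shRenilla Starv. Without replicate 1 of shBruce Starv, Birc6, Anapc13 and S100a4 still passed, and none of the other genes outside the family that are given here by name as higher or lower did. Of the 11 modifier genes, 3 were higher in shBruce, among them Nedd8 (0.95) and Urm1 (0.64, and 0.40 without replicate 1 of shBruce Starv), and 0 were lower. Of 9 E1 genes, 1 was higher and 1 was lower, the latter Uba6, which charges UBE2Z, with a difference of -1.12. Among 8 other E2 genes and E2 variants, Cdc34 and Ufc1 (0.72), the E2 of UFM1, were higher and Birc6 and Uevld (-0.63) lower.

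The ligase lists held genes that were higher and genes that were lower. Of 16 APC/C genes, 4 were higher, among them Anapc11 (0.99, and 0.46 without replicate 1 of shBruce Starv) and Anapc13 (0.78), and 3 lower, among them Anapc1 (-0.77) and Cdc27 (-0.58). Of 8 cullin and RBX genes, Rbx1 was higher (0.56) and Cul4b (-0.43), Cul5 (-0.35) and Cul3 (-0.34) lower. Stub1 (0.71, and 0.47 without that library) and Traf2 (0.34) were higher and Shprh (-1.14), Traf6 (-0.52) and Hltf (-0.49) lower among the 7 ligases of UBE2N. Ubr1 (-0.87), of 5 RAD6 ligases, and Arih1 (-0.44), of 4 RBR ligases tested, were lower, and of the 20 G2 and mitosis genes 4 were lower. The lists of ERAD and CTLH ligases had 0 of 6 each past the threshold in edgeR, with 1 and 2 at an unadjusted p under it. Of the 12 markers named above, S100a4 (1.16) and Ptprc (1.52), the latter with at most 17 counts, were also higher in shBruce Starv, and their part in these differences was not tested.

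**Figure D4:**
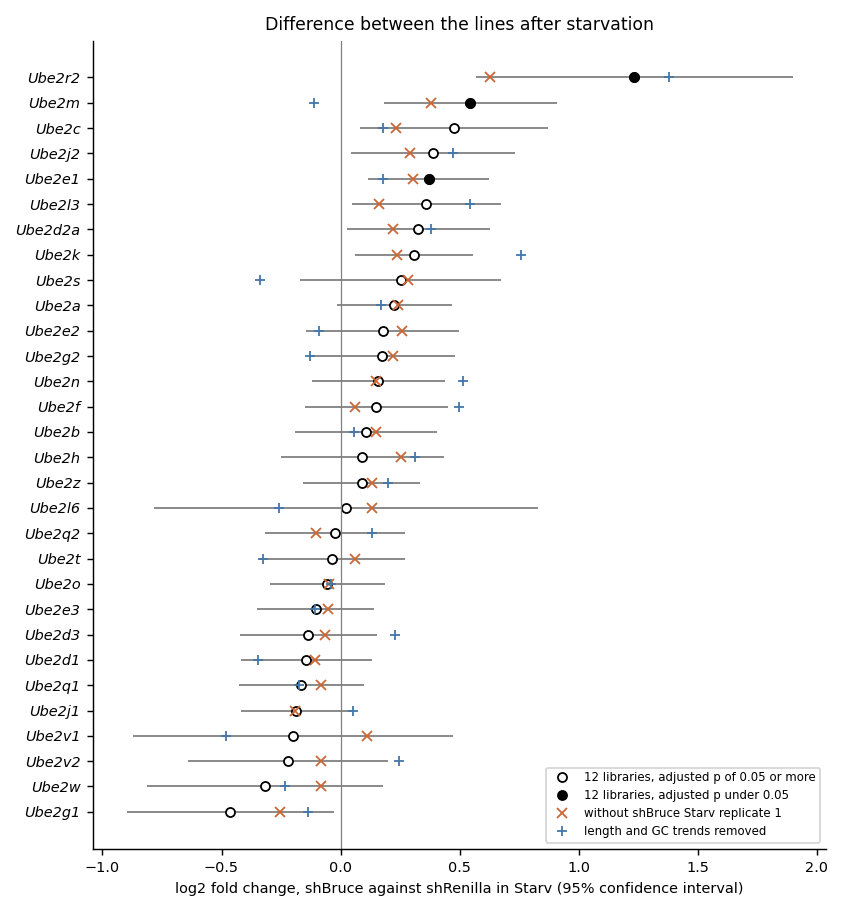
Difference between shBruce and shRenilla MEFs in Starv, as log2 fold change, for tested members, with 95% confidence intervals from edgeR (circles and lines; filled circles have an adjusted p under 0.05). Crosses leave out replicate 1 of shBruce Starv, and plus signs have length and GC trends removed. The cross of Ube2r2 lies at 0.63 against 1.23 with all libraries, and the plus sign of Ube2m lies at -0.11.

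The interaction of line and medium asked whether starvation acted differently in the 2 lines. In edgeR 0 of the 31 members passed, against 0% of all genes, and 0 had an unadjusted p under the threshold, against 474 of 12154 genes. DESeq2 and limma-voom also called 0 members. Over all genes DESeq2 called 1 higher and 1 lower, and limma-voom called 0. The interaction was above 0 for 20 members, against 5958 of 12154 genes, and had a median of 0.05. It was 0.88 for Ube2r2, with a 95% confidence interval of -0.05 to 1.81. For Ube2f, Ube2g2 and Ube2t it was 0.01, -0.01 and 0.05, with intervals of -0.41 to 0.42, -0.44 to 0.42 and -0.39 to 0.49.

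Of the tested members, Ube2l6 had the widest spread between replicates in FM, in shBruce. ISG15 is an interferon-induced modifier, UBA7 is its E1 and UBE2L6 its E2. Ube2l6 had 333, 288 and 289 normalized counts in shRenilla FM, 298, 280.4 and 302 in shRenilla Starv, 296, 355 and 75.4 in shBruce FM and 240.2, 375 and 276 in shBruce Starv. Replicate 3 of shBruce FM was the lowest library, and the other 11 lay between 240.2 and 375. In shBruce FM Isg15 had 1982, 2618 and 344 and Uba7 had 125, 161 and 17.9, so replicate 3 was low for the modifier, its E1 and its E2 alike. In the other conditions Isg15 ranged from 1452 to 2659 and Uba7 from 98.6 to 143. Ube2l6 had log2 fold changes of -0.05 ± 0.37 after starvation in shRenilla and 0.30 ± 0.38 in shBruce, both smaller than their standard errors.

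**Figure D5:**
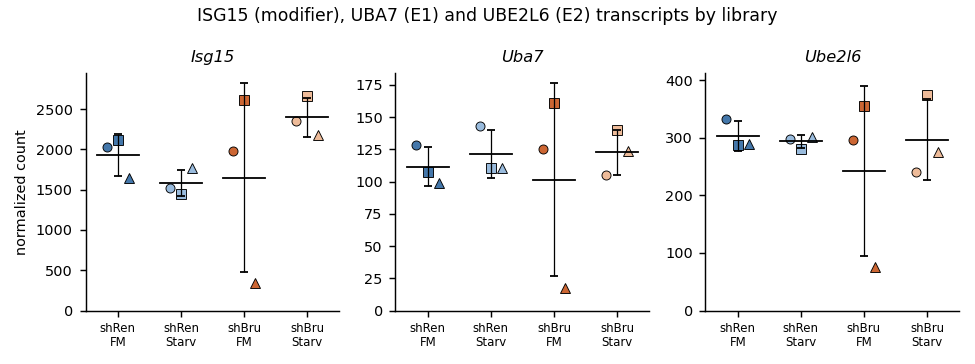
Normalized counts of Isg15 (modifier), Uba7 (E1) and Ube2l6 (E2) by library, with means as lines and SD as error bars (n = 3). Replicate 3 of shBruce FM (triangle) is the lowest library for all of them, at 344, 17.9 and 75.4.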

How the data were processed

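Per the labels and the study's methods, the authors extracted RNA with TRIzol and selected poly(A) RNA. Single-end reads of 50 bases were cleared of rRNA, aligned to mm10 with STAR 2.4.0d and counted per gene with HTSeq 0.5.4p3. The table they deposited holds those raw read counts without normalization. The annotation, strand setting and overlap mode of the counting are not given in the sources used here, and the authors' own test was limma-voom after TMM. Of the symbols in the table, 27 had turned into dates (0.296% of counts) and are not named.

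Counts of all 12 libraries were fitted jointly with edgeR 4.0.16 in R 4.3.3 (TMM, filterByExpr, two-sided quasi-likelihood test). The p-values were adjusted by Benjamini-Hochberg over 12154 genes, at a level of 0.05. Members passed where the adjusted p was under it. The processing was tested on simulated data. Alternatives were DESeq2's size factors, upper-quartile normalization, DESeq2 1.42.0, limma 3.58.1 (voom), other filters, only the groups compared, a replicate block, removed length and GC trends (spline with 4 degrees of freedom, 12051 genes), a change of at least 1.5-fold and each library left out, and 2 more were added after seeing the data. Same-numbered replicates did not deviate together (correlations from -0.456 to 0.347), so no pairing was used. Positions, lengths and shared windows came from GENCODE M21 on GRCm38 and promoters from RefSeq. Python 3.11.15 was used for tables and figures with pandas 2.3.3, scipy 1.17.1 and matplotlib 3.10.9.

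Members and gene lists were chosen with earlier results of these data known. The rule for names was every member by role, with values in every library for those that passed, Birc6 as the targeted gene, and up to 3 genes per list and direction among those that passed. Results for a few of these genes are not reported here. Levels of Ube2z, Ube2c, Ube2l6, Isg15, Uba7 and Cdc34 by library, and the 2 markers that differed, were singled out after their values were seen.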

Additional observations from a re-analysis of the deposited data

How the results depend on the processing

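The number of members past the threshold after starvation in shRenilla was 4 as reported. With only the groups compared it was 12, against 2681 higher and 2332 lower of 11954 genes. With length and GC trends removed it was 9, against 1600 and 1362 of 12154. With these removed and without replicate 1 of shBruce Starv (added after seeing the data) it was 13, against 2291 and 2180 of 12254. A change of at least 1.5-fold left 2, and the share of all genes was not counted for this rule. Leaving out a library left 2 to 8, the 8 without replicate 3 of shBruce Starv, against 1726 and 1405 of 12278. In shBruce (7 as reported) it was 0 with only the groups compared, against 552 higher and 404 lower of 11787 genes. It was 11 under the added alternative, against 1977 and 2352 of 12254. A change of at least 1.5-fold left 4, again without a count over all genes. Leaving out a library left 4 to 9, the 9 without replicate 2 of shBruce Starv, against 1648 and 1344 of 12284. The number of members was otherwise within 1.5 times, in shBruce with trends removed included.

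For shBruce against shRenilla in Starv the number of members was 4 as reported. Without a filter on low counts it was 2, against 1315 higher and 1488 lower of 18859 genes. With only the groups compared it was 0, against 0 of 11969. With trends removed it was 2, against 330 and 244 of 12154. With trends removed and without replicate 1 of shBruce Starv it was 0, against 154 and 146 of 12254. A change of at least 1.5-fold left 1, and the share of all genes was not counted for this rule. Leaving out a library left 0 to 10, the 10 without replicate 3 of shBruce Starv, against 2727 and 3008 of 12278. The FM comparison and the interaction stayed at 0 members in every fit run. Some of these fits did call other genes. With only the groups compared in FM, 221 of 11680 genes were higher and 376 lower in shBruce. In that fit 4 members had an unadjusted p under the threshold, and the share of all genes with such a p is not given here. With the replicate number as a block, the number of members in Starv was 1, against 892 higher and 1040 lower of 12154 genes. In limma-voom with the block (added after seeing the data) it was also 1, against 539 and 759. With the block and trends removed it was 0, against 0 and 1. For starvation with the block it was 3 in shRenilla, against 1043 and 727, and 5 in shBruce, against 1316 and 1134. The numbers do not pair the libraries, so this is no measure of a weaker effect.

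Ube2m in Starv reversed with length and GC trends removed (-0.11), also with the block (-0.11) and without replicate 1 of shBruce Starv (-0.084). The cause was not tested. Ube2f and Ube2g2 kept their calls in all 25 alternatives in shRenilla and in 24 of 25 in shBruce, where the fit of only the shBruce libraries was the exception. Ube2t kept its call in 19 of 25 in shRenilla and 24 of 25 in shBruce. Over the 17 single-gene results and 425 alternatives, 286 kept their side of the threshold, 127 fell short of it, 9 newly passed and 3 reversed. Depth was lowest in replicate 1 of shBruce Starv, with 7717265 counts.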
